A study of Mus musculus with 6 samples.

Results

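The genes described here encode respiratory complexes I, II and III and the ATP synthase of mitochondria, together with factors that assemble complex I and a few genes that share their names. They are the entries of the BAF250A and BRD9 comparison tables whose symbol starts with Nduf, Uqcr or Atp5, or is Sdha, Sdhb, Sdhc, Sdhd or Cyc1. Symbols ending in -ps, with or without a number, were left out, which removed 3 entries. The rule uses names and no measured value, and it finds 80 of the 27179 genes in each table. They comprise 7 core and 29 accessory subunits of complex I, 8 complex I assembly factors, 6 relatives of complex I genes, 4 subunits of complex II, 9 of complex III, 6 of the F1 part of the ATP synthase and 11 of its membrane part and stalk. Atp5o, which joins F1 to the outer stalk, is counted here with the F1 part.

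The cells were C2C12, an immortalised mouse myoblast line that can fuse into myotubes, collected 48 h after the change to differentiation medium with horse serum and insulin. All 3 groups carried a stably introduced shRNA: a scrambled sequence in the controls, a sequence against BAF250A (gene Arid1a), or a sequence against BRD9. Both proteins are subunits of SWI/SNF enzymes, which remodel chromatin, BAF250A in the family called BAF and BRD9 in the family called ncBAF. Each group had 2 RNA sequencing libraries, and the labels do not say whether a line was 1 clone or a pool. The question in the series title is how the requirement for BAF differs from that for ncBAF when myoblasts differentiate, and the BAF180 knockdown it also names was not analysed here.

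Complex I takes electrons from NADH and complex II takes them from succinate, and both pass them through ubiquinone to complex III and from there to cytochrome c. Complexes I and III pump protons across the inner mitochondrial membrane, and the ATP synthase lets the protons flow back through its membrane part, which turns a stalk inside the F1 part and drives ATP synthesis. Most subunits are encoded in the nucleus, and differentiating myoblasts are known for an increase in mitochondrial mass. Messenger RNAs of such genes have often been copied back into the genome during evolution, which leaves processed pseudogenes: copies without introns whose sequence stays close to that of the parent gene.

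Fold changes below were deposited by the authors as log2 ratios, read here as knockdown over control, with a standard error (SE), and a gene was called where the authors' Wald test, adjusted by the Benjamini-Hochberg method over all genes, gave an adjusted p below 0.05. Group levels are means of the normalized count implied by the deposited mean over 4 libraries and the fold change, and values per library were not analysed here except for genes with few reads. With 2 libraries per group, the p-values measure only the spread between those libraries. In the authors' deposited tables Arid1a was at -1.95 (SE 0.48, adjusted p = 0.000381) with the BAF250A shRNA and Brd9 at -1.60 (SE 0.54, adjusted p = 0.0252) with the BRD9 shRNA, and these signs set which group is the numerator. No gene changed by less than 1.02 (BAF250A) or 1.29 (BRD9) was called in the authors' deposited tables, which bounds what this design could detect. Of the 5 myotube genes examined, Myog, Myh3, Ckm, Mymk and Acta1, all were present in the controls, all fell with BAF250A in the authors' deposited table, from -1.94 (Myog) to -5.24 (Ckm), and none was called with BRD9. The 3 smooth muscle genes examined, Acta2, Tagln and Cnn1, rose with BAF250A, by 1.10, 3.47 and 3.60 in the authors' deposited table. With BRD9 they were at 0.45, 1.56 and 0.43 there and not called, Tagln with an adjusted Wald p of 0.0558. The part of these myotube and smooth muscle states in the results below was not tested. Of 3 myoblast genes, Myf5 fell in both of the authors' deposited tables (-1.83 and -1.78), Pax7 rose with BRD9 (4.26) and Mki67 was not called. Of 3 fibroblast genes, Pdgfra was at 2.69 and Thy1 at 3.25 in the authors' deposited table for BAF250A, both called, and Dcn was not called. Thy1 (SE 1.17) rests on low implied means, 1.92 in the controls and 18.3 with BAF250A. Among 9 genes of adipocytes, endothelium and macrophages, Kdr (-7.60 and -5.32) and Cd68 (-2.53 and -2.46) fell in both of the authors' deposited tables, from implied means of 178 and 157 in the controls, and Cebpa was at 556 in the controls and not called. Adipoq was listed at 0, and Plin1, Pecam1, Cdh5, Ptprc and Adgre1 had implied means of at most 8.61 in any group. The part of these genes in the results was not tested either. In the BAF250A table the control libraries had recovered size factors of 1.58 and 1.09, and the knockdown libraries 0.801 and 0.773, so depth moved with the groups, and its part in the results was not tested.

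Both tables rest on the same 2 control libraries, and the labels do not state whether these were aligned and counted in the same way as the knockdown libraries. Of the tested entries that RefSeq types as pseudogenes, 72.9% of 462 were called lower with BAF250A and 67.2% of 479 with BRD9, beside 13.6% and 5.88% of protein-coding entries. For a gene that has a copy, a difference between libraries in how reads were assigned to gene and copy therefore cannot be told apart from a change in the RNA of the gene. Below, "rose" and "fell" describe, for a gene with a copy and for a copy, the reads counted at that entry.

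With BAF250A, 23 of the 79 tested members rose and 5 fell, together 35.4%, where 28.7% of all 16450 tested genes were called. Among all tested genes 11.2% were called higher and 17.5% lower. With BRD9, 19 of 79 rose and 5 fell, together 30.4%, beside 14.4% of all 17198 tested genes, of which 5.11% were called higher and 9.33% lower. The members' median log2 fold change was 0.38 with BAF250A and 0.16 with BRD9, and the median over all tested genes was -0.18 and -0.15. The remaining member, Uqcr11, was tested in neither table: it had 0 and 2 reads in the controls, 0 and 0 in the BAF250A libraries and 0 and 3 in the BRD9 libraries. In bulk RNA, fewer cells of a type and less RNA per cell cannot be told apart.

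**Figure D1:**
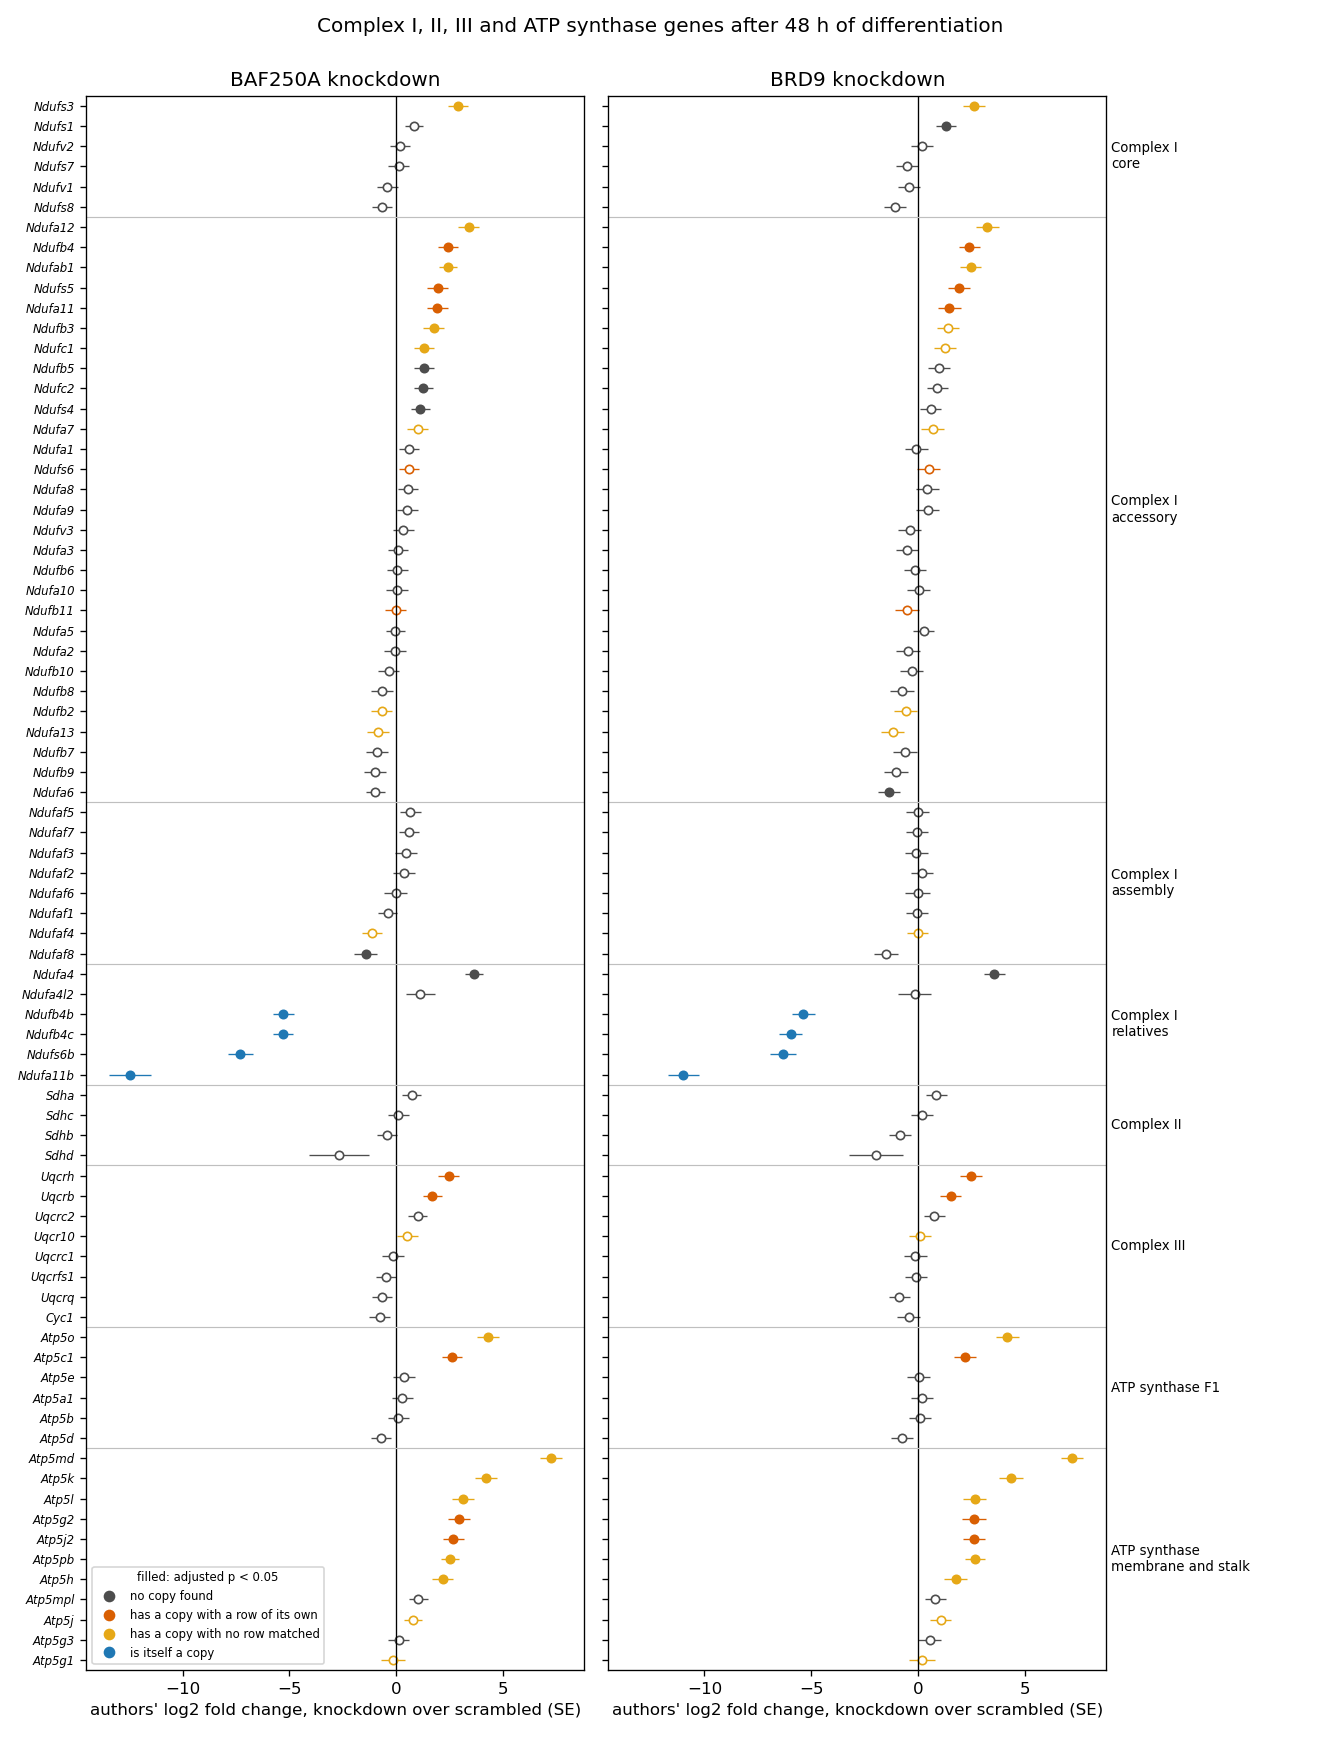
Authors' log2 fold change of tested members in the BAF250A (left) and BRD9 (right) comparison, with SE bars, ordered by complex; filled points have an adjusted p below 0.05 and colours give the class of copy. Most filled points above 0 belong to genes with a copy elsewhere in the genome, and the 4 genes far below 0 are themselves copies.

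Most members that were called have, or are, a copy in the genome. A copy was defined as a gene elsewhere that the annotation names a pseudogene and that shares at least 20 words of 31 bases with the coding sequence of the member, to which entries named as a copy of a member were added. By this definition 46 members had no copy, 10 had a copy that is itself an entry of the tables, 20 had a copy for which no entry was matched, and 4 were copies themselves (Ndufa11b, Ndufs6b, Ndufb4b and Ndufb4c). Ndufb4b was taken as a copy by its name alone: it was not matched to GENCODE M21, so its sequence was not compared. RefSeq types Ndufb4b and Ndufb4c as protein-coding, while GENCODE types Ndufb4c as a processed pseudogene. Members with a copy made up 19 of the 23 that rose with BAF250A and 17 of the 19 that rose with BRD9. The 4 members that are copies fell in both tables.

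The first pair shown is Ndufa11, an accessory subunit in the membrane arm of complex I, and its copy Ndufa11b, because this copy has the lowest fold change of all members. Ndufa11 lies on the plus strand at chr17:56717767-56722141 and Ndufa11b on the plus strand at chr16:22053510-22053933 (GRCm38, GENCODE M21), and the copy is annotated as a processed pseudogene with 1 exon, where the coding transcript of Ndufa11 has 4. Over 424 aligned coding bases they are 94.8% identical. Bases 7 to 96 of the Ndufa11 coding sequence and the aligned bases of the copy follow, with the differing bases in capitals:
Ndufa11: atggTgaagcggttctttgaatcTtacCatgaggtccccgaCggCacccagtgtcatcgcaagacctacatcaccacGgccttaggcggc
Ndufa11b: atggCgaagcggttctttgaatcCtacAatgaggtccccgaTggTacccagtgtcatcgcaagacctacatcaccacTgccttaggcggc
Counted from the first coding base of Ndufa11, these 6 differences are T11C, T30C, C34A, C48T, C51T and G84T.

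For other pairs no base differs, so a read that lies inside the shared part cannot be assigned to either place by its sequence. Ndufb4, an accessory subunit of the membrane arm, lies on the minus strand at chr16:37647170-37654453 in 3 exons, and Ndufb4c on the minus strand at chr15:73809507-73809896 in 1 exon, and all 390 coding bases are the same. Atp5md, a small subunit of the ATP synthase membrane part also known as DAPIT, lies on the minus strand at chr19:47083464-47090647, and its copy Gm14539, for which no entry was matched, on the minus strand at chrX:20581141-20581314, with 174 of 174 aligned bases identical. The first 90 coding bases of both pairs are shown in lower case because they hold no difference:
Ndufb4: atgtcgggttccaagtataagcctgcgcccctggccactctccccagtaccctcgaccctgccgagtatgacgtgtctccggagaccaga
Ndufb4c: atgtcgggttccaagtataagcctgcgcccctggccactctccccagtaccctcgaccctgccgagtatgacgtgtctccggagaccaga
Atp5md: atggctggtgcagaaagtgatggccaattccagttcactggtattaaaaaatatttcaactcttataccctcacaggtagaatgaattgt
Gm14539: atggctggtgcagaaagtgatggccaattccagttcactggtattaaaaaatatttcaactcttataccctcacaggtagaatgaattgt
Across the 10 members whose copy is an entry of the tables, identity to the copy ranged from 93.1% (Atp5c1 and Atp5c1-ps) to 100% (Ndufb4, and Atp5g2 with Gm10175).

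The 7 core subunits of complex I carry the flavin and the iron-sulfur clusters or shape the ubiquinone site. Of these, 1 rose with BAF250A and 2 rose with BRD9, with medians of 0.18 and 0.16. The shares called were 14.3% and 28.6%, beside 28.7% and 14.4% of all genes. Ndufs3 had an implied mean of 695 normalized counts in the controls, 5157 with BAF250A and 4483 with BRD9. Its log2 fold change in the authors' deposited tables was 2.89 (SE 0.47, adjusted p = 1.93e-08) and 2.61 (SE 0.52, adjusted p = 1.14e-05), and it has a copy, Gm12251, that is 98.6% identical over 792 coding bases. Ndufs1, the largest iron-sulfur subunit, has no copy and rose with BRD9 in the authors' deposited table, at 1.31 (SE 0.48, adjusted p = 0.0454), beside 0.84 (SE 0.43, adjusted p = 0.127) with BAF250A. Other core subunits were not called in the authors' deposited tables. Ndufv1, which binds NADH, was at -0.41 in both, and its partner Ndufv2 at 0.18 and 0.16. Ndufs7 was at 0.12 and -0.51, and Ndufs8 at -0.66 and -1.08, with BAF250A and BRD9 in that order.

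The accessory subunits of complex I surround and stabilise the core. Of these, 10 of 29 rose with BAF250A and none fell, while 5 rose and 1 fell with BRD9, with medians of 0.52 and 0.27. The shares called were 34.5% and 20.7%, beside 28.7% and 14.4% of all genes. Ndufa12 rose most in the authors' deposited tables, by 3.39 (SE 0.49, adjusted p = 1.13e-10) with BAF250A and 3.25 (SE 0.53, adjusted p = 3.28e-08) with BRD9, from an implied mean of 90.1 in the controls to 945 and 915. Ndufab1, the mitochondrial acyl carrier protein that also serves fatty acid synthesis, rose by 2.43 and 2.46 in the authors' deposited tables. Ndufb4 rose by 2.44 and 2.40, Ndufs5 by 1.94 and 1.91, and Ndufa11 by 1.93 and 1.45 in the same tables. These 5 genes all have a copy.

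With BAF250A in the authors' deposited table, Ndufb3 (1.76) and Ndufc1 (1.31), which have a copy, and Ndufb5 (1.30), Ndufc2 (1.27) and Ndufs4 (1.12), which have none, rose as well. With BRD9 these 5 were not called, at 1.40, 1.25, 0.97, 0.90 and 0.59 in the authors' deposited table. Ndufa6, which binds the acyl carrier protein within complex I, fell by 1.36 (SE 0.50, adjusted p = 0.0462) with BRD9 and was at -0.98 (adjusted p = 0.0745) with BAF250A in the authors' deposited tables. It was the lowest accessory subunit in both, and its BRD9 call was lost when fold changes were recentred on the median of all genes (-1.20), while Ndufb3 (1.55) and Ndufc1 (1.40) were then called with BRD9. Ndufb11 and Ndufs6, both with a counted copy, were not called, at -0.03 and 0.59 with BAF250A and -0.51 and 0.49 with BRD9 in the authors' deposited tables. The remaining 16 accessory subunits were not called in either table.

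Among the 8 assembly factors of complex I, Ndufaf8, which acts with Ndufaf5, fell by 1.43 (SE 0.53, adjusted p = 0.0273) with BAF250A and was at -1.50 (SE 0.57, adjusted p = 0.0591) with BRD9 in the authors' deposited tables. After recentring Ndufaf8 was at -1.25 with BAF250A and no longer called. The highest were Ndufaf5 at 0.66 with BAF250A and Ndufaf2 at 0.18 with BRD9, neither called in the authors' deposited tables. Ndufa4, named as a complex I gene but now counted among cytochrome c oxidase subunits, rose from an implied mean of 383 in the controls to 4773 and 4917, with log2 fold changes of 3.64 (SE 0.42, adjusted p = 4.23e-16) and 3.57 (SE 0.48, adjusted p = 2.81e-12) in the authors' deposited tables. It was the only member without a copy above 1.5 in either table. No annotated pseudogene met the definition for Ndufa4, although 9.13% of its coding words occur elsewhere among annotated transcripts. Its paralogue Ndufa4l2 is known as a gene induced by low oxygen. It had 34 and 47 raw reads in the controls, 43 and 72 with BAF250A and 28 and 20 with BRD9. With size factors taken into account, the authors' deposited tables give it 1.13 (SE 0.68) and -0.16 (SE 0.79), neither called.

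None of the 4 subunits of complex II, the succinate dehydrogenase, has a copy, and none was called in either table. In the authors' deposited tables the flavoprotein Sdha was at 0.73 (SE 0.45) and 0.86 (SE 0.50), the iron-sulfur subunit Sdhb at -0.41 (SE 0.46) and -0.86 (SE 0.51), and the membrane anchor Sdhc at 0.10 (SE 0.48) and 0.19 (SE 0.52). The other anchor, Sdhd, was counted at few reads: 6 and 18 in the controls, 1 and 0 with BAF250A and 2 and 0 with BRD9. The authors' deposited tables give it -2.67 (SE 1.40) and -1.98 (SE 1.27), values that rest on those reads. The controls lie above every knockdown library in raw reads, and their size factors are also larger.

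Of 8 tested members of complex III 2 rose in each table and none fell, and the medians were 0.19 and -0.01. The share called was 25.0% in each, beside 28.7% of all genes with BAF250A and 14.4% with BRD9. Uqcrh, the hinge protein beside cytochrome c1, rose by 2.46 (SE 0.49, adjusted p = 5.51e-06) and 2.48 (SE 0.52, adjusted p = 3.76e-05) in the authors' deposited tables. Uqcrb, which lies near the ubiquinone site, rose by 1.70 (SE 0.45, adjusted p = 0.001) and 1.52 (SE 0.49, adjusted p = 0.0173) there. Both have a copy among the entries. The catalytic and core subunits have none and were not called in the authors' deposited tables: cytochrome c1 (Cyc1) was at -0.77 and -0.43, the Rieske iron-sulfur protein (Uqcrfs1) at -0.47 and -0.11, Uqcrc1 at -0.15 and -0.13, and Uqcrc2 at 1.00 and 0.77. The lowest with BRD9 was Uqcrq at -0.88, also not called. Recentred on the median of all genes, Uqcrc2 was at 1.18 with BAF250A and called.

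The F1 part is the catalytic head of the ATP synthase, grouped here with Atp5o, and 2 of these 6 genes rose in each table. The share called was 33.3% in each, beside 28.7% of all genes with BAF250A and 14.4% with BRD9. Its alpha subunit Atp5a1 (0.30 and 0.19), beta subunit Atp5b (0.09 and 0.09), delta subunit Atp5d (-0.70 and -0.75) and epsilon subunit Atp5e (0.38 and 0.02) have no copy and were not called in the authors' deposited tables. The gamma subunit Atp5c1, which forms the turning stalk, rose by 2.61 (SE 0.47, adjusted p = 3.14e-07) and 2.21 (SE 0.51, adjusted p = 0.000236) in the authors' deposited tables. Atp5o, the OSCP subunit that joins F1 to the outer stalk, rose by 4.29 (SE 0.50, adjusted p = 8.38e-16) and 4.17 (SE 0.55, adjusted p = 1.1e-12) there. Its implied mean was 797 normalized counts in the controls beside 15549 and 15599 in the knockdowns, and its copy Gm5436 is 97.0% identical over 642 bases.

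The membrane part and stalk of the ATP synthase had the highest share of members that rose, 7 of 11 (63.6%) in each table. Their medians were 2.51 and 2.60, and Atp5o was not counted with them. Among all tested genes 11.2% were called higher with BAF250A and 5.11% with BRD9. Atp5md rose by 7.25 (SE 0.51, adjusted p = 6.25e-44) and 7.20 (SE 0.53, adjusted p = 1.33e-39) in the authors' deposited tables, the largest rise among the members, from an implied mean of 16.8 in the controls to 2555 and 2765. Subunit e (Atp5k) rose by 4.21 and 4.33 and subunit g (Atp5l) by 3.13 and 2.64 in the authors' deposited tables. Subunit f (Atp5j2) rose by 2.68 and 2.60, subunit b (Atp5pb) by 2.51 and 2.68 and subunit d (Atp5h) by 2.18 and 1.77 there. These 6 genes have a copy.

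The c ring, through which the protons pass, is encoded by 3 genes whose mature proteins are the same. Atp5g2 rose by 2.92 (SE 0.51, adjusted p = 1.94e-07) and 2.62 (SE 0.55, adjusted p = 4.26e-05) in the authors' deposited tables. Atp5g1 (-0.13 and 0.18) and Atp5g3 (0.12 and 0.55) were not called there. Atp5g1 also has copies, and the closest, Gm10039, shares 92.9% of its coding words; it was among the members with a copy that were not called. Atp5j, or coupling factor F6 (0.79 and 1.05), and Atp5mpl (1.04 and 0.81) were not called in the authors' deposited tables, and recentring brought Atp5mpl to 1.22 and a call with BAF250A.

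Across complexes, few of the members without a copy were called. Among these, 0 of 6 ATP synthase genes, 0 of 5 complex III genes and 0 of 4 complex II genes were called in either table, and 3 of 22 structural complex I subunits were called with BAF250A and 2 with BRD9. Over all 46 members without a copy, 4 rose and 1 fell with BAF250A (10.9% called, beside 28.7% of all genes), and 2 rose and 1 fell with BRD9 (6.52%, beside 14.4%). Their medians were 0.10 and -0.06, and 44 of 46 lay within 1.5 log2 units of 0 in each table. Ndufa4 and Sdhd lay outside that bound, which is wider than the smallest change called in either table. Of the 29 tested members with a copy, 19 rose with BAF250A and 17 with BRD9 and none fell, with medians of 1.94 and 1.77, in reads whose assignment to gene or copy may differ between the libraries. A log2 fold change above 1.5 occurred in 18 members with a copy and 1 without in the BAF250A table, and in 16 and 1 in the BRD9 table. The complexes differ in how many members have a copy: 11 of 17 for the ATP synthase, 14 of 36 for the structural subunits of complex I, 4 of 9 for complex III and 0 of 4 for complex II.

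The copies that have an entry of their own went the other way. All 11 of them, counting the 3 entries with a -ps ending and 4 named as predicted genes, were called lower in both tables, with log2 fold changes in the authors' deposited tables from -12.46 (Ndufa11b) to -3.56 (Gm10175) with BAF250A and from -11.14 (Atp5c1-ps) to -4.03 (Gm10175) with BRD9. The medians were -6.68 and -6.33. Most pseudogene entries of the tables were called lower too, as given above, and whether the control libraries were processed differently was not tested.

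The levels of genes and copies were then set side by side. Ndufa11 had an implied mean of 1498 normalized counts in the controls and its copy Ndufa11b 8745, while in the BAF250A knockdown the gene had 5690 and the copy 1.55. With BRD9 the gene was at 4279 and the copy at 4.48. Ndufb4 was at 540 in the controls and its 2 copies together at 6785, against 2932 and 174 with BAF250A. Of the 6785, 3482 came from Ndufb4b, a copy by name whose sequence was not compared. Uqcrh-ps1, the copy with few reads, had 148 and 226 reads in the controls, 2 and 4 with BAF250A and 6 and 4 with BRD9, so its groups did not overlap. Over the 10 genes the copies held between 11.5% (Uqcrh) and 92.6% (Ndufb4) of the sum of gene and copies in the controls, and between 0.00692% (Atp5c1) and 6.89% (Atp5g2) in the BAF250A knockdown. The corresponding ranges from the BRD9 table were 11.2% to 92.5% and 0.0121% to 6.06%. Implied means of a few counts are uncertain, because the deposited fold changes of genes with a single read are drawn toward 0.

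**Figure D2:**
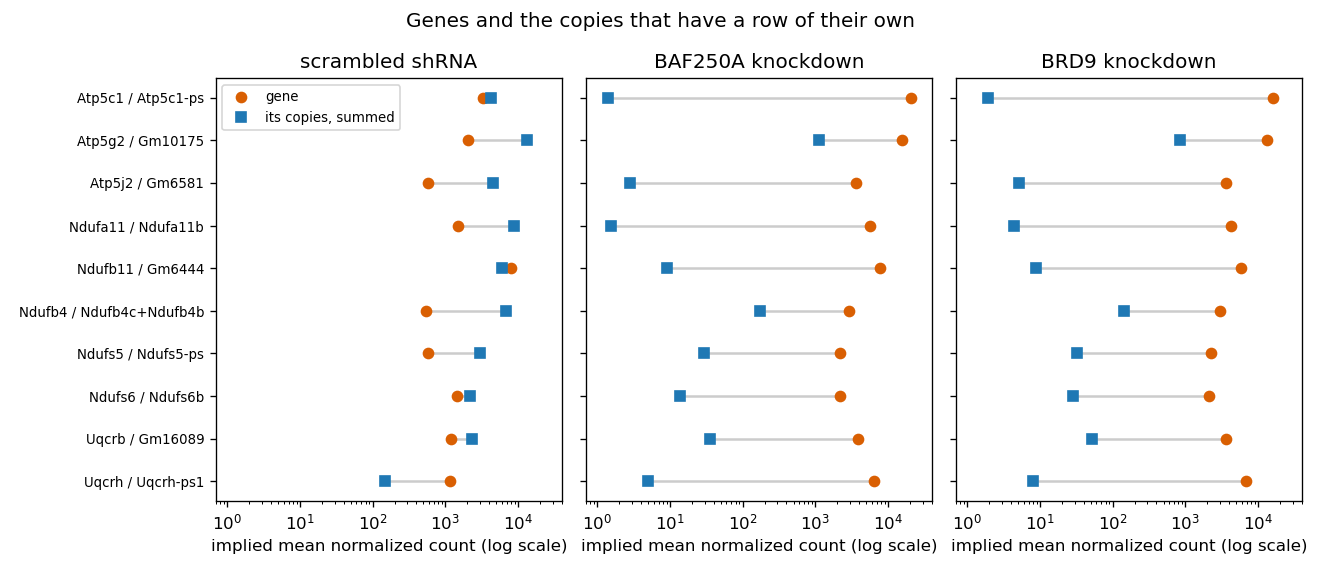
Implied mean normalized count, on a log axis, of 10 genes (circles) and of their copies summed (squares) in the scrambled controls, from the BAF250A table, and in each knockdown. In 8 of the 10 pairs the copies exceed the gene in the controls, while in both knockdowns every gene exceeds its copies.

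When each gene was added to its copies, 6 of the 10 sums were negative with BAF250A and 8 with BRD9. The median log2 fold change of the 10 genes was 2.19 with BAF250A and 2.06 with BRD9 from their own entries, and -0.58 and -0.62 from the sums, which carry no test. Summed, Ndufb4 stood at -1.24 and -1.27, Ndufa11 at -0.85 and -1.31, Ndufb11 at -0.84 and -1.33, Ndufs6 at -0.73 and -0.82, Ndufs5 at -0.69 and -0.70 and Atp5j2 at -0.48 and -0.53. Atp5g2 came to 0.10 and -0.19 and Uqcrb to 0.14 and -0.02. Atp5c1 and Uqcrh kept positive sums, 1.42 and 1.03 for Atp5c1 and 2.28 and 2.31 for Uqcrh. Only copies with a matched entry could be added, and further copies of some of these genes are missing from the sums. For Atp5g2 the missing Gm10231 shares 99.3% of its coding words, as does the added Gm10175. For Atp5c1 the missing Gm8722 shares 155 words, beside 97 for the added Atp5c1-ps. For the 20 members whose copies have no matched entry, among them Atp5md, Atp5o, Atp5k and Ndufs3, no such sum could be formed, and the part of the copies in their rise was not tested.

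**Figure D3:**
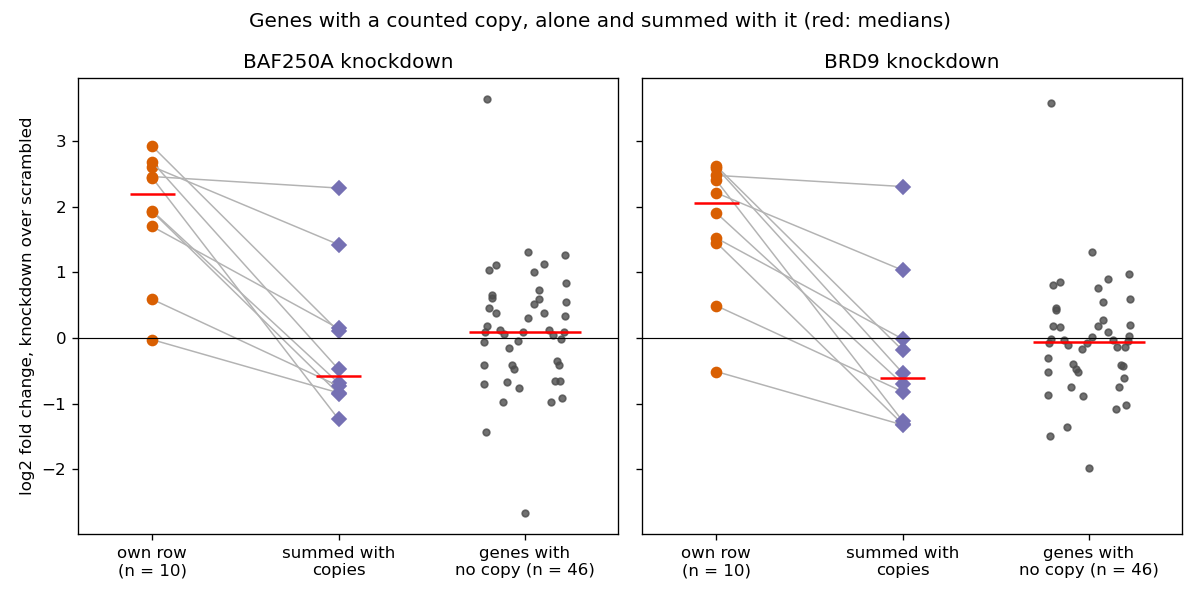
Log2 fold change of the 10 genes with a counted copy from their own entry (left in each panel), after adding gene and copies (middle, joined by lines), and of the 46 members without a copy (right); red bars are medians. With BAF250A the median moves from 2.19 to -0.58, and the members without a copy have a median of 0.10.

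Levels per kilobase of transcript were also set out by class. The length taken was that of the transcript with the longest coding sequence, which need not be the one expressed. Members without a copy had a median implied level of 2682 normalized counts per kilobase in the controls, 4118 with BAF250A and 3791 with BRD9. Members with a copy had 1179 in the controls, 4930 with BAF250A and 5230 with BRD9. Their control median is the value of Atp5g1, for which a transcript of 4715 bases was taken. The gap between the classes in the controls therefore depends on that choice of length, and it was not tested. Atp5b was the highest member in the controls, at 50652 per kilobase, followed by Atp5d at 27801 and Ndufb9 at 24623. The copy Ndufa11b came next at 20626, just above Atp5a1 at 20075. The spread of these levels over the control libraries was not analysed here, so neighbours in this order were not tested against each other.

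The knockdowns were not told apart at any member. The difference of the log2 fold changes, BAF250A minus BRD9, ran from -1.48 (Ndufa11b) to 1.29 (Ndufa4l2) with a median of 0.10, and 65 of 79 members differed by 0.5 or less. By a two-sided z test, adjusted by Benjamini-Hochberg across 16311 genes with a test in each table, 0 of 79 members were called, beside 2.54% of all genes, and 0 had an unadjusted p below 0.05. The lowest adjusted p of a member was 0.854. This does not show that the knockdowns act alike: a 95% interval reached, at the median, 1.41 log2 units to either side, and the smallest difference called for any gene was 2.08. For Ndufs1 the difference was -0.46, with an interval from -1.72 to 0.79, and for Ndufaf4 -1.10, from -2.43 to 0.23. Both comparisons use the same 2 control libraries, so the 18 members that rose in both and the 4 that fell in both are not independent counts, and the z test overstates the error.

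**Figure D4:**
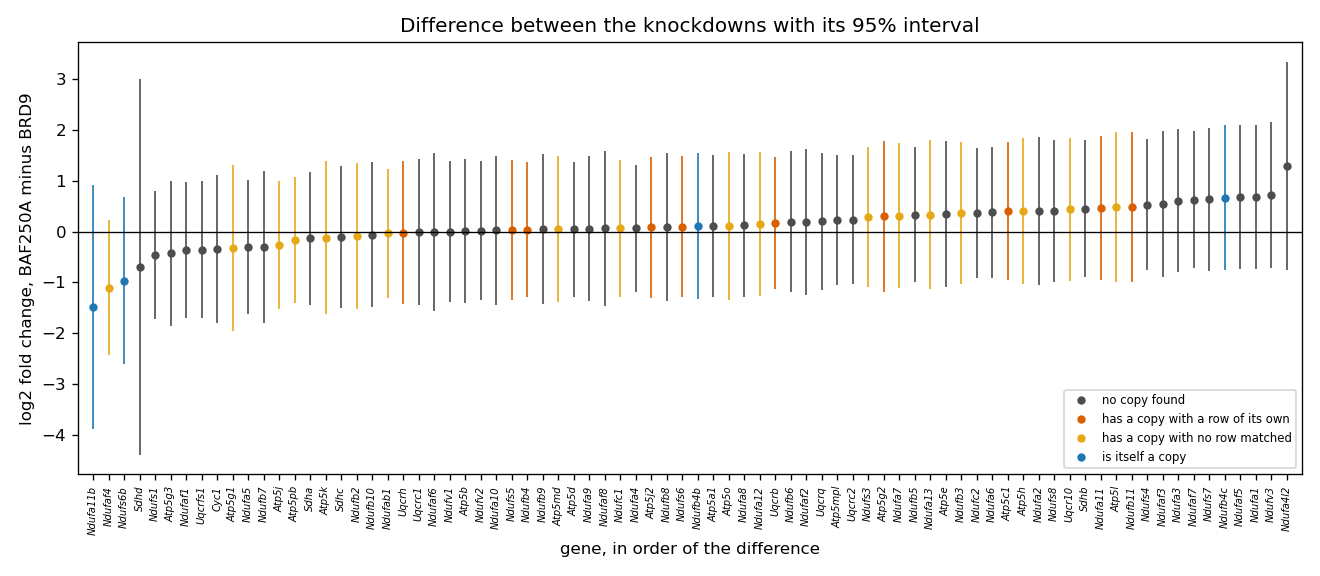
Difference of the log2 fold changes (BAF250A minus BRD9) of tested members in ascending order, with 95% intervals and colours by class of copy. Every interval includes 0, from Ndufa11b at -1.48 to Ndufa4l2 at 1.29.

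Other genes of the pathway were read from 5 lists. Of 10 subunits encoded by mitochondrial DNA, which complexes I, III and V need beside the nuclear ones, only ND6 was called (10.0%, beside 28.7% of all genes, and 0 with BRD9, beside 14.4%), lower with BAF250A at -1.63 (SE 0.42, adjusted p = 0.000931) in the authors' deposited table; with BRD9 it was at -1.03 and not called. By the definition above 8 of the 10 have a copy, ND6 among them, and none of these rose by the authors' calls. After recentring on the median of all genes, 2 of the 10 were called with BRD9. Medians of the 10 were -0.06 and 0.45. Of 25 further assembly factors 1 rose and 1 fell with BAF250A (8.0% called) and 1 rose with BRD9 (4.0%), both shares below those of all genes. Nubpl, which supplies iron-sulfur clusters to complex I and has a copy, was at 2.39 and 1.73 in the authors' deposited tables, and Timmdc1, a membrane assembly factor of complex I with no copy, fell by 1.15 with BAF250A. Of the 7 assembly factors with a copy, Nubpl alone was called. Of 13 citrate cycle genes 3 rose with BAF250A (23.1% called, beside 28.7%) and 2 with BRD9 (15.4%, beside 14.4%), shares below and near those of all genes. In the authors' deposited tables Suclg2, a succinyl-CoA ligase subunit with a copy, rose by 2.83 and 2.91, fumarase (Fh1, no copy) was at 1.30 (called) and 0.98 (not called), and Sucla2 (no copy) at 0.86 (not called) and 1.47 (called).

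Of 23 tested electron and membrane carriers, 2 rose and 1 fell with BAF250A (13.0% called, beside 28.7%) and 2 rose with BRD9 (8.70%, beside 14.4%). Etfa, an electron transfer flavoprotein subunit with a copy, rose by 3.56 and 3.62, and the outer membrane channel Vdac2, also with a copy, by 1.40 and 1.36 in the authors' deposited tables. The other 8 carriers with a copy were not called, among them Tomm20, with 12 copies, and Cycs, cytochrome c, with 11, chosen here after their values were seen. Tomm20 was at -0.34 and -0.48 and Cycs at 0.32 and 0.67 in the authors' deposited tables. Coq8a, needed for ubiquinone synthesis, has no copy and fell by 2.97 (SE 0.55, adjusted p = 9.48e-07) with BAF250A and was at -0.35 with BRD9 in the authors' deposited tables. The difference of -2.62 between the knockdowns had an adjusted p of 0.0519 in the z test and was not called.

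Most of the 17 tested regulators of mitochondrial biogenesis were not called. With BAF250A 4 fell (23.5%, beside 17.5% of all genes called lower) and with BRD9 3 fell (17.6%, beside 9.33%), none rose, and none of the called genes has a copy. Under a Bonferroni adjustment 2 were called with BAF250A and 0 with BRD9. In the authors' deposited tables Ppargc1a, the coactivator PGC-1 alpha, fell by 3.51 (SE 0.62, adjusted p = 2.32e-07) and by 2.63 (SE 0.74, adjusted p = 0.00391). Perm1, a muscle regulator induced by it, was lower at -4.77 (SE 0.86) and -2.81 (SE 0.72), and the nuclear receptor Esrra at -1.65 (SE 0.49) and -1.44 (SE 0.53), all called. Esrrg, at a mean of 7.54 normalized counts, fell by 4.17 with BAF250A and was at -0.74, not called, with BRD9 in the authors' deposited tables. The myotube genes listed above fell beside these with BAF250A and were not called with BRD9, and their part in these values was not tested.

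**Figure D5:**
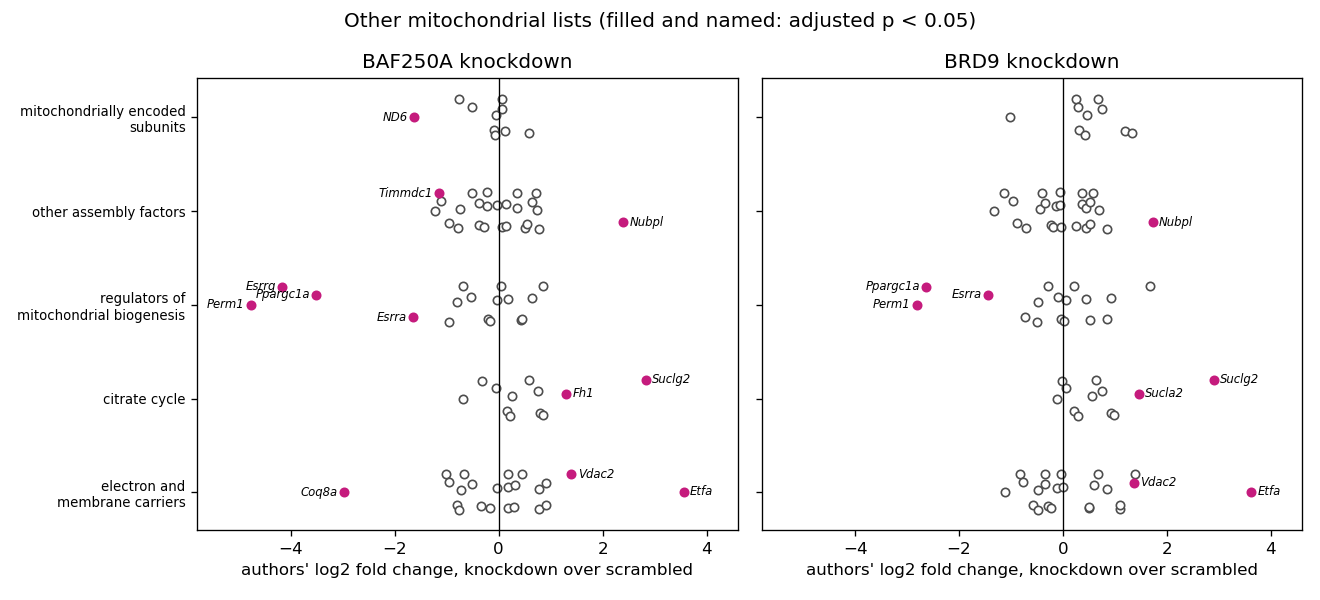
Authors' log2 fold change of genes in 5 further mitochondrial lists for BAF250A (left) and BRD9 (right); filled, named points have an adjusted p below 0.05. Among the biogenesis regulators the called points lie below 0, from Perm1 at -4.77 with BAF250A to Esrra at -1.44 with BRD9.

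Promoters were searched for letters that factors of respiratory genes are known to bind, in windows from 250 bases before to 50 after the start (RefSeq, GRCm38.p6), on both strands, for the 64 members matched. CCGGAAG, a core of ETS sites such as those of GABP, was found in 16 of 64 members (25.0%) and in 9.93% of 27025 genes. GCGCATG, part of the site of NRF1, was found in 13 members (20.3%) and in 4.41% of genes, and AAGATGG, part of the site of YY1, in 11 (17.2%) and in 7.28%. The 27025 genes are all those with a promoter window, expressed here or not, and no background of similar promoters was searched. The 3 strings share parts (GG, AAG, ATG) and may overlap in a promoter. By class, CCGGAAG was in 8 of 35 members without a copy (22.9%) and 8 of 28 with one (28.6%). Such a match describes the sequence and is not evidence of binding.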

How the data were processed

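RNA sequencing of 6 libraries (3 groups of 2) was used through 2 comparison tables, each of 4 libraries and 27179 genes. Tools listed in the submitters' processing notes are DESeq2, RSEM, Bowtie, StringTie and HISAT, and the build is mm10; versions and roles are not stated. A normalized count averaged over the libraries of a comparison, a signal, is deposited for each gene. The log2 fold change and its standard error stand in further columns per the file headers, as does the Wald score, their ratio. The p-value and the adjusted p-value are deposited too, and a recalculation found the latter to be a Benjamini-Hochberg adjustment. No count table per library was used, so no count model was fitted and the planned edgeR branch was not needed. Library totals were not analysed here. Genes with few reads were resolved into whole reads per library, and in 3488 of 3488 genes resolved in both tables the control reads were identical.

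Computed here, with Python 3.11.15, numpy 2.4.6, pandas 2.3.3, scipy 1.17.1 and Biopython 1.88, were implied group means (taking the fold change as the ratio of 2 group means), the z test between knockdowns, copies, sums and motif matches. Copies were searched in GENCODE M21 transcripts of GRCm38, the build called mm10. Of the tables' genes, 25228 were matched to that annotation by number or symbol and 151 by position, and 1800 were not matched. The z test was tested on simulated data. Members and lists were chosen with earlier results of these data known. Named are all called members, the core subunits, members with a counted copy, the highest and lowest of each complex, and up to 5 called genes per other list; some genes that this rule names are not reported here or drawn by name. Alternatives covered the adjustment, the threshold, a mean of 100 or more, an empirical null, recentring, leaving out members with copies, and summing with copies. A definition of copies by words of 50 bases was chosen after seeing the data. The promoter letter strings were also chosen after seeing the data; longer forms of the NRF1 and YY1 strings were searched first and replaced by these shorter ones for display.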

Additional observations from a re-analysis of the deposited data

How the results depend on the processing

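No paired analysis was possible because the tables hold no value per library, and for the same reason no replicate was left out. The call counts of members were 28 with BAF250A and 24 with BRD9. With BAF250A the count was 18 under a Bonferroni adjustment and 9 under an empirical null. The share of all genes called under these settings is not given here. Counts under them, of members or of the other lists, therefore cannot be set against a background. Leaving out the members with a copy and the copies left 5 called with BAF250A and 3 with BRD9. By group, that left 0 core, 3 accessory and 1 relative of complex I called with BAF250A, and 0 in complex III, 0 in F1 and 0 in the membrane part. With BRD9 it left 1 core, 1 accessory and 1 relative, and 0, 0 and 0 in the same order. The medians without copies were 2.39 for the relatives, -0.47 for complex III and 0.58 for the membrane part with BAF250A, and -0.41 for the core, 1.71 for the relatives and 0.68 for the membrane part with BRD9.

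Recentring left 0 assembly factors called with BAF250A. Of the other lists under Bonferroni, 0 mitochondrially encoded subunits, 1 assembly factor, 2 regulators and 1 citrate cycle gene were called with BAF250A, and 0 assembly factors, 0 regulators, 1 citrate cycle gene and 1 carrier with BRD9. Recentring left 1 other assembly factor called with BAF250A. It brought the mitochondrially encoded subunits called with BRD9 from 0 to 2. All other counts tried stayed within 1.5 times the main count. All other medians tried moved by less than the median SE of the members they cover. With words of 50 bases 18 of 23 members with a copy were called higher with BAF250A and 16 with BRD9. The count of 0 members that differ between the knockdowns stayed at 0 in each setting tried.

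Among single genes, recentring turned signs in uncalled members that lie near 0, and summing with copies turned them in called members too. Recentred with BAF250A, Atp5g1 was at 0.0432, Ndufa2 at 0.12, Uqcrc1 at 0.0314, Ndufa5 at 0.14, Ndufaf6 at 0.16 and Ndufb11 at 0.15. With BRD9, Uqcrc1 was at 0.0199, Ndufa1 at 0.0694, Uqcrfs1 at 0.0420, Ndufaf3 at 0.0711, Ndufaf4 at 0.14, Ndufaf5 at 0.13, Ndufaf1 at 0.11, Ndufaf7 at 0.12, Ndufaf6 at 0.14 and Ndufb6 at 0.0211. Summed with copies, BAF250A signs turned for Atp5j2 (-0.48), Ndufb4 (-1.24), Ndufa11 (-0.85), Ndufs6 (-0.73) and Ndufs5 (-0.69). With BRD9 they turned for Atp5j2 (-0.53), Uqcrb (-0.0153), Atp5g2 (-0.19), Ndufb4 (-1.27), Ndufa11 (-1.31), Ndufs6 (-0.82) and Ndufs5 (-0.70). These signs turned through the addition of the counts of the copy, and why the entries of gene and copy changed was not tested. Having 2 libraries per group and the lack of values per library limit the precision of every value.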
